A study of Glycine max with 6 samples.

Results

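The genes described here encode the potassium, sodium and cation/proton exchange transporters of soybean roots. They were picked by words in the protein description that the deposited tables give each gene, such as potassium transporter, potassium channel, K(+) efflux antiporter, cation/H(+) antiporter, sodium/hydrogen exchanger and SKOR, and by the 6 potassium transporter genes that the study listed among its nutrient transporters. The rule found 96 of 48667 listed genes, 95 by description and 1, GmHKT1, through the study's list alone. No expression level entered the description rule, but it could find only genes listed in these tables, and each of the 96 had counts in at least 1 library. The 6 potassium genes of the study's list were selected by the study on these same libraries, so their direction is not independent evidence here. Root RNA of Glycine max was sequenced from 3 libraries of acid-treated roots (pH 4.2) and 3 libraries of control roots (pH 5.8). The labels carry the line code YC03-3, whereas the methods of the study name genotype Huachun 6, with 30 days of hydroponic culture and 2 plants per replicate. The pH was adjusted each day with KOH or H2SO4. The amounts are not given in the sources used here, so any difference in potassium supplied with the KOH and the pH itself cannot be told apart. In whole roots, fewer cells of a type and less RNA per cell cannot be told apart either.

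Potassium is the main cation of plant cells, and its uptake by root cells is driven by the gradient that the plasma membrane proton pumps maintain. KUP/HAK/KT transporters carry potassium together with protons, inward Shaker channels of the AKT and KAT type let it in down the voltage, and HKT transporters move sodium, with or without potassium. In Arabidopsis, SKOR channels release potassium from stelar cells into the xylem, TPK channels release it from the vacuole, and KEA, CHX and NHX proteins exchange cations for protons across internal or surface membranes.

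The 96 genes comprised 37 uptake genes (27 KUP, 9 inward Shaker and 1 HKT), 10 efflux channel genes (7 TPK and 3 SKOR-like outward Shaker), 47 antiporter genes (33 CHX, 10 KEA and 4 NHX) and 2 genes for channel beta subunits. They lay on all 20 chromosomes, apart from 1 gene predicted from the reads. KEGG terms, which the rule did not use, were uniform within 3 subfamilies: all 27 KUP genes carried the KUP term K03549, all 7 TPK genes carried K05389 and all 4 NHX genes carried K14724. The description rule left out 8 genes of related annotation, including another HKT1-like gene and 5 genes that carry the same KEGG term as the NHX genes, so the sodium/hydrogen exchangers were covered only in part.

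Library totals ran between 9137226 and 9358750 expected counts, at which 3 counts equal 0.311 to 0.338 CPM (counts scaled to a common library total by TMM). Intervals and floors of this kind cover counting error only. On the first principal component of all genes, which held 42.9% of the variance, control replicate 2 (-11.5) lay closer to acid replicate 1 (-23.1) than to the other control libraries (60.1 and 103). On the second component, with 22.2% of the variance, these libraries were the opposite extremes, control replicate 2 at -77.4 and acid replicate 1 at 70.8. Nothing in the labels says whether the libraries came from separate cultures, so p-values measure the spread between these libraries.

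Of the 96 genes, 58 had counts high enough for the test and 62 were listed above 0 in all 6 libraries. The other 38 were close to silent in these roots, with at most 14 counts in any library and at most 52 over all libraries. They were 25 CHX, 6 inward Shaker, 4 KUP, 1 KEA, 1 TPK and 1 NHX genes. At such counts, no change between acid-treated and control roots was detectable. The subfamilies therefore differed in how far they were expressed: 23 of 27 KUP genes but 7 of 33 CHX genes averaged at least 1 FPKM (fragments scaled by gene length and library total, so that levels of different genes can be compared).

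Potassium transporter 5 (Glyma.19G263100), a KUP/HAK gene whose Arabidopsis namesake HAK5 takes up potassium with high affinity, had the highest level of all 96 genes. Its FPKM was 67.6, 49.4 and 63.2 in acid-treated roots, against 99.7, 80.6 and 165 in control roots. All acid libraries lay below all control libraries. The log2 fold change was -0.91 (SE 0.32), which did not pass edgeR's test with Benjamini-Hochberg adjustment (adjusted p = 0.303). This gene made up 24.1% ± 1.5 of the summed KUP FPKM in acid-treated roots and 32.9% ± 6.6 in control roots (SD, n = 3 each; exact permutation p = 0.1, two-sided, the smallest that 3 against 3 libraries can give).

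The next levels belonged to the beta subunit genes Glyma.10G124800 and Glyma.20G077200, whose proteins bind the cytosolic side of Shaker channels. Glyma.10G124800 averaged 58.4 ± 16.4 FPKM in acid-treated roots and 49.3 ± 15.2 FPKM in control roots, and Glyma.20G077200 averaged 35.3 ± 11.6 FPKM in acid-treated roots and 26.2 ± 8.2 FPKM in control roots (SD, n = 3 each). The values of these neighbours in the order overlapped between libraries, and neither gene passed the test. Ranks 4 to 6 were taken by GmKUP6, GmSKOR and GmKUP3, with 11.7 to 14.3 FPKM in acid-treated roots and 27.7 to 31.5 FPKM in control roots. Their spreads overlap, so their order among themselves is not set by these libraries. The inward channel genes were far lower: the highest of them, AKT1-like Glyma.05G010600, averaged 2.72 FPKM in acid-treated roots and 2.93 FPKM in control roots.

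**Figure D1:**
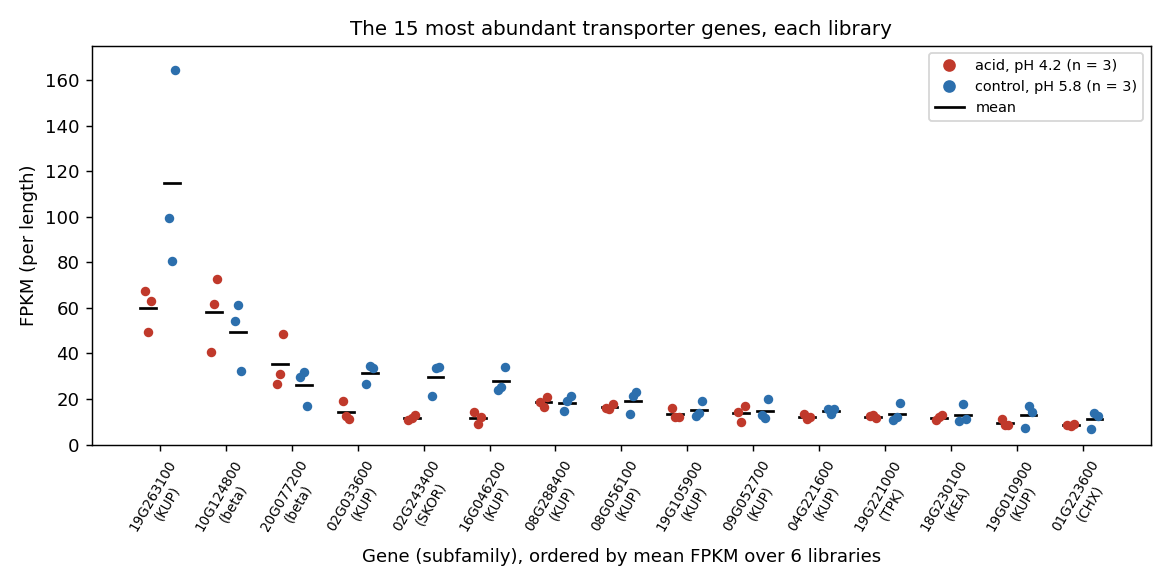
FPKM (vertical axis, linear) of the 15 transporter genes with the highest mean, with acid-treated libraries in red on the left and control libraries in blue on the right of each gene. Points are libraries (n = 3 each) and bars are means. Potassium transporter 5 (19G263100) stands highest, between 49.4 and 67.6 FPKM in the acid libraries and between 80.6 and 165 FPKM in the control libraries.

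Does growth at pH 4.2 change transcript levels of these transporters? With edgeR's quasi-likelihood test, an adjusted p under 0.05 over all 33490 genes tested and at least a 2-fold change, 1 of the 58 tested genes passed, GmHKT1, and it was lower in acid-treated roots. Over all genes, 0.558% passed, 0.331% as lower and 0.227% as higher. Among the 57 tested genes that the description alone picked, edgeR passed 0. At an unadjusted p under 0.05, 15 of those 57 passed (5 higher and 10 lower in acid-treated roots), where 4.21% of all genes passed as higher and 7.61% as lower. DESeq2 at the same limits passed 9 of the 63 genes to which it gave an adjusted p (14.3%), 7 lower and 2 higher, where it passed 2.77% of all genes, 1.55% as lower and 1.22% as higher. Of these 9, 6 were the study's own list, which had been selected on these libraries at similar limits, and 3 were not. Without control replicate 2, edgeR passed 3 of these genes (GmHKT1, Glyma.03G171600 and GmKUP3). In that fit it passed 3.26% of the 34461 genes tested. That share counts tested genes only, whereas the 96 include genes with too few counts to be tested.

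Acid and control libraries did not overlap for 18 of the 58 tested genes (31.0%), 11 lower and 7 higher in acid-treated roots. Over all genes tested, 16.4% did not overlap, 9.23% lower and 7.17% higher. Outside the study's list, 12 of 52 genes (23.1%) did not overlap, 6 in each direction. At an unadjusted p under 0.05, 10 of these 52 genes passed (19.2%), against 11.8% of all genes. The median log2 fold change of the 58 genes was -0.08, and that of all genes tested was -0.0027. Fitted changes were under 2-fold for 48 of the 58 genes, some of them with groups that did not overlap. The share of all genes tested with changes under 2-fold was not computed.

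GmHKT1 (Glyma.12G133400) encodes a sodium transporter of the HKT family, whose Arabidopsis member retrieves sodium from the xylem sap. It had 3.04, 1.69 and 1.77 CPM in acid-treated roots, against 10.7, 7.37 and 14.8 CPM in control roots. Every acid library lay below every control library. GmHKT1 fell by 2.33 on the log2 scale (SE 0.37), with an edgeR adjusted p of 0.0428 and a DESeq2 adjusted p of 5.19e-05. The edgeR call rested on the full set of libraries: leaving out 1 library at a time gave adjusted p between 0.0124 and 0.253, and the gene passed in 1 of these 6 fits, without control replicate 2. The other HKT1-like gene of the tables, Glyma.06G271600, lies outside the rule and was looked up after the values were seen. It averaged 36.7 ± 5.3 CPM in acid-treated roots and 60.5 ± 15.6 CPM in control roots (SD, n = 3 each), and its log2 fold change of -0.72 did not pass edgeR's test (adjusted p = 0.276).

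Among the KUP genes, DESeq2 passed GmKUP3 and GmKUP6 as lower and GmKT2 as higher, where it passed 1.55% of all genes as lower and 1.22% as higher. EdgeR passed 0 of 23, with 8 at an unadjusted p under 0.05 (3 higher and 5 lower). Over all genes, 4.21% were higher and 7.61% lower at that limit. GmKUP3 (Glyma.16G046200, described as potassium transporter 4-like) had 39.5, 24 and 33.1 CPM in acid-treated roots, against 65.7, 68.4 and 89.6 CPM in control roots. The groups did not overlap. The log2 fold change was -1.21 (SE 0.24; edgeR adjusted p = 0.0896, DESeq2 adjusted p = 0.00272). GmKUP3 passed edgeR's test without control replicate 2 (adjusted p = 0.0458).

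GmKUP6 (Glyma.02G033600), whose Arabidopsis namesake acts in potassium release and cell expansion, had 39.7, 24.8 and 22.8 CPM in acid-treated roots, against 53.2, 70.4 and 65.8 CPM in control roots. All control libraries were higher. Its log2 fold change was -1.12 (SE 0.26; edgeR adjusted p = 0.12, DESeq2 adjusted p = 0.015). Its estimated counts were not whole numbers in 3 libraries, so some of its reads were shared with other genes.

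GmKT2 (Glyma.06G143800, potassium transporter 2-like) was the KUP gene with the largest positive change. It had 28.5, 28.5 and 24.8 CPM in acid-treated roots, against 14.4, 9.83 and 8.29 CPM in control roots. The acid libraries were all higher and lay close together. The log2 fold change was 1.33 (SE 0.24; edgeR adjusted p = 0.0652, DESeq2 adjusted p = 0.000535), and leave-one-out adjusted p ranged between 0.0496 and 0.311, passing only without control replicate 1.

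Further KUP genes separated the groups without passing either test. Potassium transporter 17 (Glyma.08G091900) had 10.5, 10.0 and 8.21 CPM in acid-treated roots, against 5.29, 5.45 and 3.94 CPM in control roots. It had the second largest positive change of the KUP genes, 0.97 on the log2 scale (SE 0.25; edgeR adjusted p = 0.165). Potassium transporter 7-like Glyma.08G179100 averaged 25.7 ± 3.6 CPM in acid-treated roots and 18.7 ± 1.5 CPM in control roots (SD, n = 3 each), with a log2 fold change of 0.46 (edgeR adjusted p = 0.392). Lower in every acid library were Glyma.13G170700 (potassium transporter 8-like) and Glyma.01G031800 (potassium transporter 6-like), which were chosen after their values were seen. So was Glyma.04G221600 (potassium transporter 2-like), described with GmKT2 below. Glyma.13G170700 had 9.01, 6.55 and 8.98 CPM in acid-treated roots, against 11.8, 15.1 and 12.8 CPM in control roots (log2 fold change -0.69; edgeR adjusted p = 0.274). Glyma.01G031800 had 18.7, 15.5 and 14.5 CPM in acid-treated roots, against 22.5, 29.5 and 25.6 CPM in control roots (log2 fold change -0.67; edgeR adjusted p = 0.218).

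Other abundant KUP genes differed by less than the spread between libraries. They too were picked after the values were seen, from those next in the order of level. Glyma.19G105900 also lies in this range of levels and is described with GmKUP3 below. Potassium transporter 12 (Glyma.08G288400) averaged 18.8 ± 2.2 FPKM in acid-treated roots and 18.4 ± 3.4 FPKM in control roots (SD, n = 3 each), with a log2 fold change of 0.06. Potassium transporter 25-like Glyma.08G056100 averaged 16.5 ± 1.3 FPKM in acid-treated roots and 19.3 ± 5.2 FPKM in control roots, with a log2 fold change of -0.20. Potassium transporter 10 (Glyma.09G052700) averaged 13.8 ± 3.6 FPKM in acid-treated roots and 14.8 ± 4.5 FPKM in control roots, with a log2 fold change of -0.07. The KUP genes at the top of the order by level were thus of both kinds, some apart between the groups and some overlapping.

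Inward Shaker channel genes did not pass either tool. AKT1-like Glyma.05G010600, named for the main inward potassium channel of Arabidopsis roots, had 6.98, 8.14 and 7.99 CPM in acid-treated roots, against 4.97, 7.91 and 11.5 CPM in control roots. The acid values lay inside the range of the controls. Its log2 fold change was -0.08 (SE 0.32; edgeR adjusted p = 0.942), and its sign turned without control replicate 3. KAT3-like Glyma.13G217800, named for an Arabidopsis subunit that is silent alone and modifies its partner channels, had 5.63, 6.34 and 6.10 CPM in acid-treated roots, against 4.32, 4.6 and 2.59 CPM in control roots. The acid libraries were all higher, but the log2 fold change of 0.65 (SE 0.31) did not pass edgeR's test (adjusted p = 0.467).

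Of the efflux channel genes, 8 of the 9 tested had negative log2 fold changes, with a median of -0.25, where 50.3% of all genes tested were negative. DESeq2 passed 3 of them as lower (1.55% of all genes), while edgeR passed 0, with 4 lower at an unadjusted p under 0.05 (7.61% of all genes). Of these 9 genes, GmSKOR and GmTPK5 came from the study's list. GmSKOR (Glyma.02G243400) had 28.7, 29.0 and 36.3 CPM in acid-treated roots, against 49.7, 97.1 and 85.0 CPM in control roots. The groups did not overlap, and the control libraries spread more. The log2 fold change was -1.30 (SE 0.27; edgeR adjusted p = 0.0959, DESeq2 adjusted p = 0.00323), and edgeR passed it only without control replicate 1 among the fits that leave out 1 library.

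A second SKOR-like gene, Glyma.14G212500, had 8.56, 5.92 and 13.8 CPM in acid-treated roots, against 13.4, 39.6 and 27.1 CPM in control roots. Here acid replicate 3 lay just above control replicate 1, so the groups overlapped. Its log2 fold change was -1.51 (SE 0.43; edgeR adjusted p = 0.2, DESeq2 adjusted p = 0.0423). The remaining SKOR-like gene, Glyma.05G247500, had a log2 fold change of -0.21. Summed over the 3 SKOR-like genes, acid-treated roots had 39.6, 36.9 and 53.0 CPM, and control roots had 67.3, 139 and 115 CPM (exact permutation p = 0.1, two-sided, the smallest possible). Over 9 such sums, 1 for each subfamily, the Benjamini-Hochberg adjusted value was 0.18.

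Because SKOR and HKT1 act around the xylem in Arabidopsis, a list of 31 xylem genes (secondary-wall cellulose synthases, xylem cysteine proteinases and laccases) was set beside them. Its summed level was 229, 209 and 272 CPM in acid-treated roots, against 240, 633 and 550 CPM in control roots. The acid and control sums overlapped (exact permutation p = 0.2, two-sided). The order of the control libraries was that of Glyma.14G212500 and GmSKOR, lowest in replicate 1 and highest in replicate 2. GmKUP6, CHX18-like Glyma.01G223600 and the summed Casparian strip genes of the endodermis had this order too. How many of all genes share it was not counted. Of the 27 tested genes of the xylem list, edgeR passed 1 as lower (0.331% of all genes) and DESeq2 passed 2 as lower (1.55% of all genes). Acid and control libraries did not overlap for 4 of the 27, all lower, where 9.23% of all genes were lower without overlap. At an unadjusted p under 0.05, 14 of the 27 were lower and 0 were higher, where 7.61% of all genes were lower, and the median log2 fold change of the list was -0.96. The part of xylem genes in the SKOR and GmHKT1 values was not tested. GmHKT1 had its highest control value in replicate 3.

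GmTPK5 (Glyma.03G223900), of the tandem-pore family whose Arabidopsis members sit mostly in the vacuole membrane, had 1.58, 1.48 and 2.11 CPM in acid-treated roots, against 5.18, 4.27 and 5.18 CPM in control roots. The groups were well apart and each was tight. The log2 fold change was -1.50 (SE 0.33; edgeR adjusted p = 0.106, DESeq2 adjusted p = 0.0406). Glyma.05G127500, described as a calcium-activated outward-rectifying channel, had 2.36, 2.11 and 2.66 CPM in acid-treated roots, against 6.80, 3.31 and 5.28 CPM in control roots. It also separated the groups, with a log2 fold change of -1.11 (SE 0.36), but passed neither edgeR (adjusted p = 0.26) nor DESeq2 (adjusted p = 0.272). It falls outside the rule for named genes and was chosen after its values were seen.

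**Figure D2:**
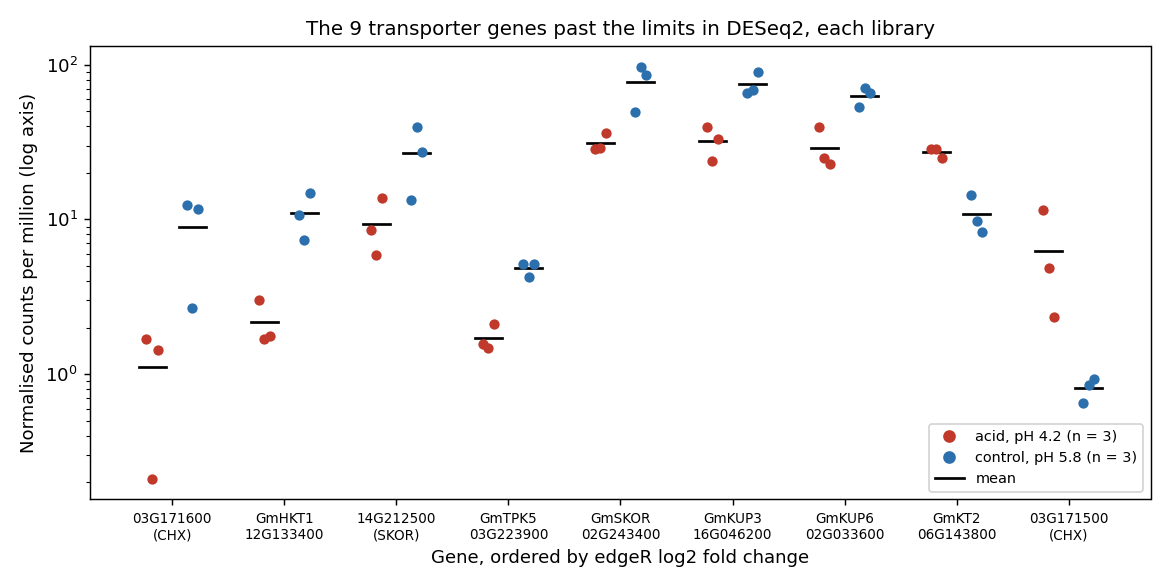
CPM (vertical axis, logarithmic) of the 9 transporter genes that passed the limits in DESeq2, ordered by log2 fold change, with acid-treated libraries in red on the left and control libraries in blue on the right of each gene. Points are libraries (n = 3 each) and bars are means. The groups are apart for 8 genes and overlap for the SKOR-like gene 14G212500, and only GmHKT1 also passed in edgeR.

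The antiporter genes held the largest changes in either direction, at a pair of neighbours. Glyma.03G171500 and Glyma.03G171600 carry consecutive gene numbers on chromosome 3, are both described as cation/H(+) antiporter 20 or 20-like, and are next to each other in the RefSeq gene table of assembly Glycine_max_v4.0. The tables also describe Glyma.03G171600 as CHX1, which RefSeq lists with the synonym GmSALT3, a soybean gene known for salt tolerance. CHX20 of Arabidopsis acts in guard cells.

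Glyma.03G171500 had 11.5, 4.86 and 2.33 CPM in acid-treated roots, against 0.648, 0.855 and 0.932 CPM in control roots. All acid libraries were higher, though they spread widely among themselves. Its log2 fold change was 2.92 (SE 0.62; edgeR adjusted p = 0.0965, DESeq2 adjusted p = 0.00118). Its estimated counts were whole in all 6 libraries.

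Glyma.03G171600 went the other way, with 1.69, 0.211 and 1.44 CPM in acid-treated roots, against 12.3, 2.67 and 11.7 CPM in control roots. Acid replicate 2 was below the level of 3 counts, and control replicate 2 was the lowest of the controls. The log2 fold change was -2.99 (SE 0.74; edgeR adjusted p = 0.143, DESeq2 adjusted p = 0.00323), and edgeR passed the gene without control replicate 2 (adjusted p = 0.0228). Its counts were not whole in any of the 6 libraries, so its reads were partly shared and its level is less certain than that of its neighbour. Its mean transcript length also differed between libraries (2193 to 2851 bases).

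The other 6 tested CHX genes had fitted log2 fold changes between -0.37 and 0.16. The most abundant, CHX18-like Glyma.01G223600, averaged 23.5 ± 1.7 CPM in acid-treated roots and 30.4 ± 10.4 CPM in control roots (SD, n = 3 each; log2 fold change -0.37, edgeR adjusted p = 0.659). Summed over all 33 CHX genes, the level was 62.7 ± 10.1 CPM in acid-treated roots and 71.6 ± 11.7 CPM in control roots (SD, n = 3 each; exact permutation p = 0.5, two-sided).

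KEA genes, which exchange potassium for protons at plastid and other inner membranes in Arabidopsis, passed in neither tool. Log2 fold changes were positive for 7 of 9 tested, where 50.3% of all genes tested were negative. At an unadjusted p under 0.05, 1 of the 9 passed, where 11.8% of all genes passed. That gene, KEA4-like Glyma.05G222500, had 5.29, 6.34 and 7.32 CPM in acid-treated roots, against 3.78, 4.70 and 3.63 CPM in control roots (log2 fold change 0.64, SE 0.28; edgeR adjusted p = 0.409). The groups did not overlap. The other KEA4-like gene, Glyma.08G029300, had 7.88, 7.72 and 11.2 CPM in acid-treated roots, against 5.40, 7.59 and 7.25 CPM in control roots, and its groups were apart by a small margin (log2 fold change 0.40, edgeR adjusted p = 0.625). The most abundant KEA gene, KEA2-like Glyma.18G230100, averaged 53.3 ± 4.4 CPM in acid-treated roots and 58.0 ± 18.8 CPM in control roots (SD, n = 3 each; log2 fold change -0.12, edgeR adjusted p = 0.874). Its sign rested on control replicate 2 (79.6 CPM), without which the log2 fold change was 0.18.

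All 3 tested NHX genes were of the NHX6 type, which in Arabidopsis sits in endosomes. The most abundant, Glyma.15G124100, had 17.9, 16 and 18.5 CPM in acid-treated roots, against 18.1, 17.4 and 22.1 CPM in control roots (log2 fold change -0.14, SE 0.19; edgeR adjusted p = 0.814). The values overlapped, and the largest change among the 3 genes was -0.35. Of the 8 related genes outside the rule, 7 were tested and 0 passed in edgeR or DESeq2. At an unadjusted p under 0.05, 1 passed (11.8% of all genes), the HKT1-like gene above.

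**Figure D3:**
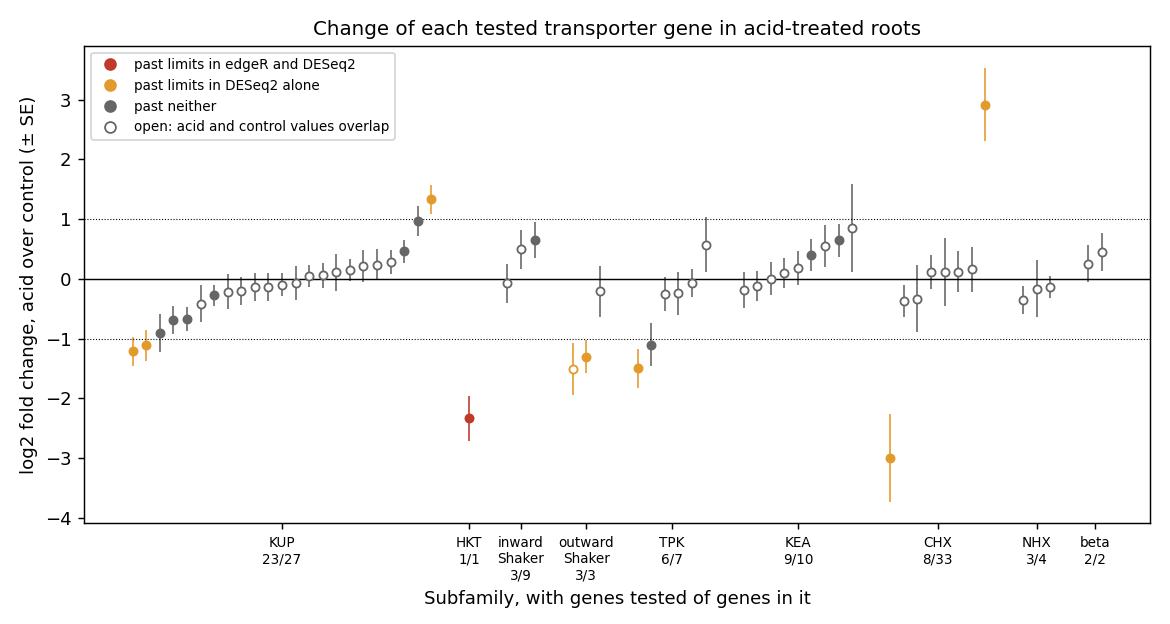
edgeR log2 fold change, acid over control, with its standard error (vertical axis) for each of the 58 tested genes, grouped by subfamily with the number tested of the number of genes in it. Dotted lines mark 2-fold, and open points are genes whose acid and control libraries overlap. The 3 SKOR-like and 3 NHX genes lie below 0, the CHX genes lie near 0 apart from the pair at -2.99 and 2.92, and only GmHKT1 passed in edgeR.

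Several genes of the study's list have a close relative by description, and the ratio within such a pair was compared between groups. These 6 pairs were chosen after the values were seen, 1 by gene number and 5 by like descriptions, and most hold a gene that was selected for its change on these libraries, so the ratios are given as a description with no test. The ratios use CPM with 0.5 added. For the CHX neighbours, the log2 ratio of Glyma.03G171500 to Glyma.03G171600 was 2.45, 2.91 and 0.54 in acid-treated roots, against -3.48, -1.23 and -3.09 in control roots. By CPM, the higher gene of the pair was thus a different one in each group, in all 6 libraries. By FPKM the 2 genes were nearly equal in acid replicate 3, at 0.77 for Glyma.03G171500 and 0.7 for Glyma.03G171600.

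GmKT2 and Glyma.04G221600 share the description potassium transporter 2-like. Glyma.04G221600 averaged 36.2 ± 2.9 CPM in acid-treated roots and 43.8 ± 3.5 CPM in control roots (SD, n = 3 each), where GmKT2 averaged 27.3 ± 2.1 CPM in acid-treated roots and 10.8 ± 3.2 CPM in control roots. The log2 ratio of GmKT2 to Glyma.04G221600 averaged -0.40 ± 0.15 in acid-treated roots and -2.00 ± 0.37 in control roots, a difference of 1.60. GmKT2 was the minor gene in every library and came closer to its relative in acid-treated roots. Glyma.04G221600 was itself lower in every acid library than in every control library, by a small margin (log2 fold change -0.27, edgeR adjusted p = 0.612). Both genes thus entered the shift of the ratio.

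GmTPK5 and Glyma.19G221000 share the description of TPK5-like channels. Glyma.19G221000, the most abundant TPK gene, had 17.8, 16.1 and 15 CPM in acid-treated roots, against 13.8, 15.4 and 22.3 CPM in control roots. It showed no separation (log2 fold change -0.08, SE 0.23), and the log2 ratio of GmTPK5 to it averaged -2.92 ± 0.31 in acid-treated roots and -1.69 ± 0.34 in control roots.

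GmKUP3 exceeded its relative Glyma.19G105900 in all control libraries and lay below it in all acid libraries. Glyma.19G105900 averaged 39.5 ± 7.6 CPM in acid-treated roots and 43.4 ± 9.0 CPM in control roots (SD, n = 3 each; log2 fold change -0.14). The log2 ratio was -0.30 ± 0.21 in acid-treated roots and 0.78 ± 0.06 in control roots. In contrast, GmKUP6 and Glyma.01G031800 were both lower in every acid library, with log2 fold changes of -1.12 and -0.67, and their log2 ratio averaged 0.79 ± 0.24 in acid-treated roots and 1.27 ± 0.06 in control roots. For each of these 5 pairs the groups of ratios did not overlap. The ratio of GmSKOR to Glyma.14G212500 did not separate, at 1.75 ± 0.42 in acid-treated roots and 1.59 ± 0.29 in control roots (difference 0.16).

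**Figure D4:**
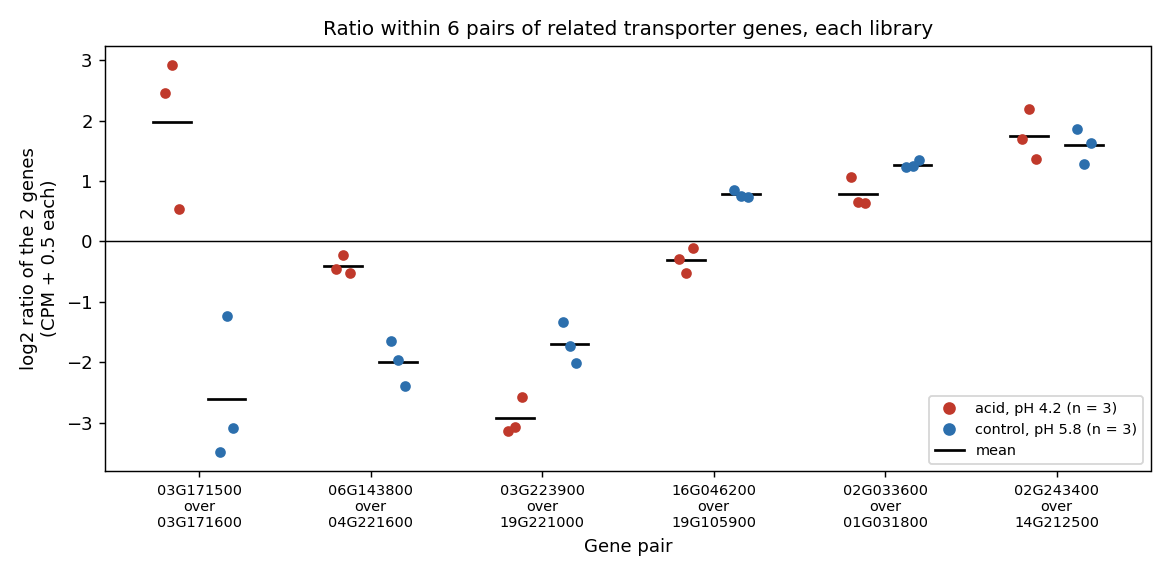
log2 ratio of the first to the second gene of 6 pairs (vertical axis, CPM with 0.5 added to each gene), with acid-treated libraries in red on the left and control libraries in blue on the right. Points are libraries (n = 3 each) and bars are means. The ratios are apart between groups for 5 pairs, and the CHX neighbours change sign, averaging 1.97 in acid-treated roots and -2.60 in control roots.

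Summed over subfamilies, KUP transcripts reached 778, 611 and 723 CPM in acid-treated roots, against 794, 861 and 1122 CPM in control roots. The groups did not overlap, but acid replicate 1 and control replicate 1 differed by little (exact permutation p = 0.1, two-sided; 0.18 adjusted over 9 sums). TPK sums were 33.0 ± 1.2 CPM in acid-treated roots and 41.5 ± 7.4 CPM in control roots, and inward Shaker sums were 22.6 ± 0.5 CPM in acid-treated roots and 19.4 ± 1.6 CPM in control roots (SD, n = 3 each; exact permutation p = 0.1 for both, two-sided). Sums over KEA (exact permutation p = 0.8), NHX (exact permutation p = 0.4) and the beta subunits (exact permutation p = 0.5) overlapped between groups.

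Other genes of cation transport were taken from lists of descriptions. Calcineurin B-like calcium sensors and CBL-interacting kinases, which together switch on AKT1 and sodium exchange in Arabidopsis, passed edgeR in 0 of 6 and 0 of 40 tested genes. At an unadjusted p under 0.05, 1 sensor (lower) and 13 kinases (5 higher and 8 lower) passed. Over all genes, 4.21% passed as higher and 7.61% as lower at that limit. The median log2 fold change was -0.31 for the sensors and -0.24 for the kinases. DESeq2 passed 0 sensors and 3 kinases, and these 3 were higher in acid-treated roots, where it passed 1.22% of all genes as higher. One of the 3, Glyma.02G202900, had 72.4 ± 17.8 CPM in acid-treated roots and 34.9 ± 11 CPM in control roots (SD, n = 3 each). Cyclic nucleotide-gated channels, which conduct potassium, sodium and calcium in plants, had a median log2 fold change of -0.41 over 25 tested genes. Neither tool passed any of them, and at an unadjusted p under 0.05 edgeR passed 6, all lower (7.61% of all genes).

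Among 15 tested proton pump genes, edgeR passed 1 in each direction, where it passed 0.227% of all genes as higher and 0.331% as lower. Plasma membrane ATPase 2 (Glyma.13G065400), of the pump family that drives the gradient KUP transporters use, fell to 2.20 ± 1.08 CPM in acid-treated roots, against 10.4 ± 0.5 CPM in control roots (SD, n = 3 each; log2 fold change -2.23, edgeR adjusted p = 0.041). The vacuolar pyrophosphate-energized pump gene Glyma.20G098300 rose to 22.2 ± 6.5 CPM in acid-treated roots, against 2.29 ± 1.30 CPM in control roots (SD, n = 3 each; log2 fold change 3.27, edgeR adjusted p = 0.024). Summed over all 19 pump genes, the level lay between 1316 and 1594 CPM in acid-treated roots and between 1141 and 1341 CPM in control roots. Vacuolar cation/proton and cation/calcium exchangers, which load calcium and other cations into the vacuole, passed in neither tool (14 tested, median log2 fold change -0.00). At an unadjusted p under 0.05, 4 passed, all higher, where 4.21% of all genes passed as higher.

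Markers of other tissues were checked in the same libraries. Casparian strip genes of the endodermis (11 of 11 tested) summed to between 78.4 and 98.2 CPM in acid-treated roots and between 30.2 and 95.7 CPM in control roots, and the groups overlapped. Light-harvesting and small Rubisco subunit genes, typical of green tissue, were present in all libraries, at 1540 to 2355 CPM in acid-treated roots and 1288 to 2092 CPM in control roots. The 2 leghemoglobin genes, typical of nodules, summed to 288 to 342 CPM in acid-treated roots and 192 to 325 CPM in control roots. The part of the genes in these 3 lists in the transporter values was not tested.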

How the data were processed

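Root RNA of 3 acid (pH 4.2) and 3 control (pH 5.8) libraries was sequenced from libraries made with a BGI RNA-Seq kit. The deposited tables hold RSEM expected counts and FPKM per gene, which the authors made with HISAT, Bowtie2 and RSEM (versions not given in the sources used here) on gene models Wm82.a2.v1, together with a deposited transcript length in bases. Strand handling is not given. The members and lists were chosen with earlier results of these data known.

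Expected counts were rounded and tested with edgeR 4.0.16 (filterByExpr, TMM, robust quasi-likelihood, no covariate), with Benjamini-Hochberg adjustment over 33490 genes. The limits were an adjusted p of 0.05 and 2-fold. DESeq2 1.42.0 was an alternative, as was limma 3.58.1, run on log2 FPKM with a pseudocount of either 0.1 or 1, beside RLE scaling, no filter, a mean count of 50, a replicate block, leaving out each library, and only genes matched by their leading description. On simulated counts edgeR recovered 192 of 200 changed genes, with 9 false calls. The recovered genes were 92 with 4-fold and 100 with 8-fold changes. Recovery of changes near the 2-fold limit was not tested, so this share does not carry over to them. CPM used TMM. Counts were called whole within 0.005.

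Named genes (20) were the study's 6 potassium genes, all genes passing edgeR or DESeq2, the highest FPKM of each subfamily, the 6 largest and 6 smallest changes among genes with separate groups, and tandem neighbours. Genes named beyond these were chosen after their values were seen. Uptake, efflux channel and antiporter groups were set by description. Of the 96 genes, 85 matched RefSeq by protein accession, and only names and neighbours were taken from it. Library totals of 9137226 to 9358750 limit genes of few counts. No sequences or coordinates were used.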

Additional observations from a re-analysis of the deposited data

How the results depend on the processing

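The count of transporter genes past the limits was 1 in edgeR and also 1 with RLE scaling and with a mean count of at least 50. It was 9 in DESeq2, 3 with no filter on low counts, 0 with limma at either pseudocount and 0 when only the leading description was matched, since GmHKT1 is then outside. Leaving out 1 library at a time gave 0 to 3, and the counts above the full set came without control replicate 1 (2 genes) and without control replicate 2 (3 genes). With the replicate block, edgeR passed 1 gene, Glyma.03G171600 (log2 fold change -3.06, adjusted p = 0.0495), and not GmHKT1. Libraries of the same number did not deviate together (correlations -0.13, -0.05 and -0.37). With 3 libraries per group, such correlations cannot decide whether the libraries were paired. The median log2 fold change of antiporter genes was -0.11 in DESeq2 and -0.10 with no filter, both over more genes. Leaving out 1 library at a time, it ran between -0.10 and 0.20, that of efflux channel genes between -0.56 and -0.24, and that of uptake genes between -0.23 and 0.078. Of the 20 named genes, 17 kept their direction under every alternative. The exceptions when 1 library was left out were Glyma.05G010600 (-0.33 to 0.26), Glyma.18G230100 (-0.27 to 0.18) and Glyma.19G221000 (-0.21 to 0.16). With 0.1 CPM added in place of 0.5, an alternative chosen after seeing the data, the pair ratios kept their direction. The cause of these differences was not tested. With 3 libraries per group and a biological coefficient of variation of 0.30, small changes and genes under a few counts stay below what this depth can show.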
